A study of Mus musculus with 42 samples.

Results

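The contractile machinery of skeletal muscle was followed through 50 genes in joint soft tissue of mice after knee arthroplasty, surgery in which an implant takes the place of joint surfaces. The 50 genes were given as a list of symbols, and all 50 were found, each once, among the 36604 genes of the joint count table. They code for proteins of the sarcomere and for the proteins that couple excitation of the muscle fibre to contraction. By isoform they hold 12 genes known for fast fibres, 10 for slow fibres and 2 for fetal or regenerating muscle. Another 5 are known to respond to injury or load, here called remodelling genes, and 21 were classed here as shared between fibre types. All 50 passed the filter on low counts, as did 16149 genes in all.

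The samples were 24 libraries of joint soft tissue from wild-type C57BL/6 mice, 4 in each of 6 groups, labelled RST on days 3, 7, 14, 21 and 35 and LST on day 35. What RST and LST stand for is not in the labels, which give no age or sex and do not say which joints were operated. RNA was taken with Trizol from flash-frozen tissue. LST was sampled on day 35 alone, so every difference between an earlier RST day and LST is one of label and day at once, and all comparisons with LST share the same 4 libraries. Nothing in the labels says that the 4 replicates of a group came from separate animals, so p-values reflect only how these samples vary, and that variation may be technical in part.

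A sarcomere is built from thin filaments of actin, regulated by tropomyosin and troponin, that slide past thick filaments of myosin. Z-discs anchor the thin filaments and the M-band links the thick ones. A nerve impulse reaches the triad, where the ryanodine receptor Ryr1 releases calcium from the sarcoplasmic reticulum, and calcium binding to troponin C starts contraction. Calsequestrins store the calcium, SERCA pumps return it to the store and parvalbumin buffers it in fast fibres. Fast and slow fibres use different genes for many of these parts, and regenerating fibres pass through a stage at which embryonic and cardiac-type isoforms are used.

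Library totals ran from 17842090 to 28024003 counts. The 50 genes together took 11.9% ± 1.19 (SD, n = 4) of all counts on RST day 3 and 12.2% ± 1.73 on day 7. Their share was 15.7% ± 1.44 on day 14, 17.8% ± 1.18 on day 21, 17.8% ± 0.164 on RST day 35 and 18.4% ± 0.525 in LST. Heart muscle markers were near 0 throughout: the summed level of 8 cardiac genes, among them Nppa, Myl7 and Ryr2, ran from 1.48 to 3.56 CPM, counts scaled to a common library total. The 8 macrophage markers summed to 1421 to 2229 CPM on RST day 3 against 74.9 to 103.5 in LST. The 8 fibroblast and matrix markers summed to 28535 to 37483 CPM on RST day 7 against 1136.5 to 1369 in LST. In bulk tissue fewer muscle fibres and less of an RNA per fibre cannot be told apart, and the part of the other cells' RNA in the changes below was not tested.

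In 2 of the libraries the slow genes stood apart from their own group. LST replicate 2 had the lowest level of its group in 9 of the 10 slow genes, at a median of 0.343 times the mean of the other 3 libraries, and the highest in 10 of the 12 fast genes. RST day 14 replicate 1 had the highest level in all 10 slow genes, at a median of 3.42 times the mean of the other 3, and the highest in none of the fast genes. The fetal genes of these libraries were at 0.769 to 1.12 times the others. Some shared genes moved like the slow ones: Myom3 was at 0.488 and 3.07 times the others, Lmod2 at 0.615 and 1.93 and Actn2 at 0.792 and 2.31. The 21 shared genes had a median of 1.05 in either library. Of them, 5 were lowest and 7 highest in LST replicate 2, and 1 was lowest and 4 highest in RST day 14 replicate 1. Results on slow genes are therefore also given without both libraries, a choice made after the data were seen and from the slow genes themselves.

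**Figure D1:**
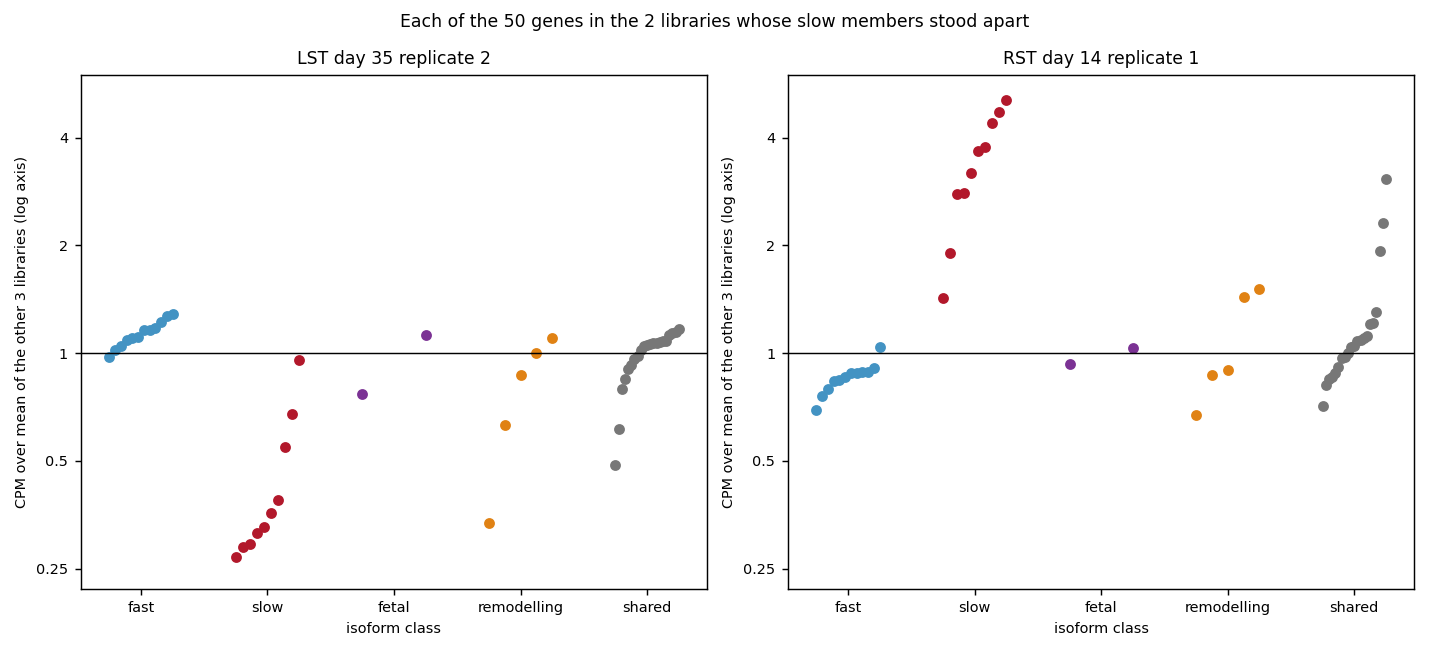
The level of each of the 50 genes in LST day 35 replicate 2 (left) and RST day 14 replicate 1 (right), divided by the mean of the other 3 libraries of the group, on a log axis and by isoform class (1 point a gene). The slow genes lie at a median of 0.343 on the left and 3.42 on the right, while the fast genes lie at medians of 1.13 and 0.867.

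Against LST day 35, most of the 50 genes were lower on days 3 and 7, and a few were higher. On RST day 3, 36 of 50 were lower and 5 higher at an adjusted p below 0.05, where 30.1% and 38.6% of all genes tested were (68.7% in either direction). Day 7 had 39 lower and 3 higher, with 35.1% and 41% of all genes (76.1% together). By day 14 the counts were 25 lower and 3 higher (24.5% and 33.4% of all genes, 57.9% together), and on day 21 they were 2 lower and 2 higher (5.42% and 21.7%, 27.1% together). Without RST day 14 replicate 2, 16 were lower on day 14, and on day 21 none was lower without RST day 21 replicate 2 or LST replicate 3 or 4. The median log2 difference of the 50 was -1.06, -1.16, -0.47, -0.19 and -0.06 on days 3, 7, 14, 21 and 35, beside medians of 0.09, 0.08, 0.03, 0.02 and 0.02 over all genes. On RST day 35 none of the 50 passed by edgeR or by DESeq2 and none had an unadjusted p below 0.05, while 2.97% of all genes passed, 2.92% higher and 0.0495% lower.

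Those differences rest on a scaling (TMM) that sets most genes level. Scaling by library size alone raised the median log2 difference of all genes by 0.52, 0.63, 0.29 and 0.12 on days 3, 7, 14 and 21. The share of calls that were higher was then 85%, 82.9%, 87.6% and 91.8%, where it was 56.2%, 53.9%, 57.6% and 80% with TMM. The members' median log2 difference was -0.54 and -0.55 on days 3 and 7 in that setting, below the all-gene medians of 0.61 and 0.71. On these days 27 and 33 members were lower (11.2% and 13.6% of all genes) and 8 and 5 higher (63.5% and 65.8%). The lower calls lost in that setting were those of Neb, Actn2, Mybpc2, Mybph, Myl2, Myl3, Myoz2, Tcap and Tmod4 on day 3 and of Ttn, Neb, Tnnc1, Casq1, Cryab and Des on day 7. On day 14 they were those of Tpm1, Mylpf, Myoz2, Ldb3, Tcap, Myom1, Lmod3, Ryr1, Atp2a1, Pvalb, Ckm and Cryab, and on day 21 that of Mylk2.

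**Figure D2:**
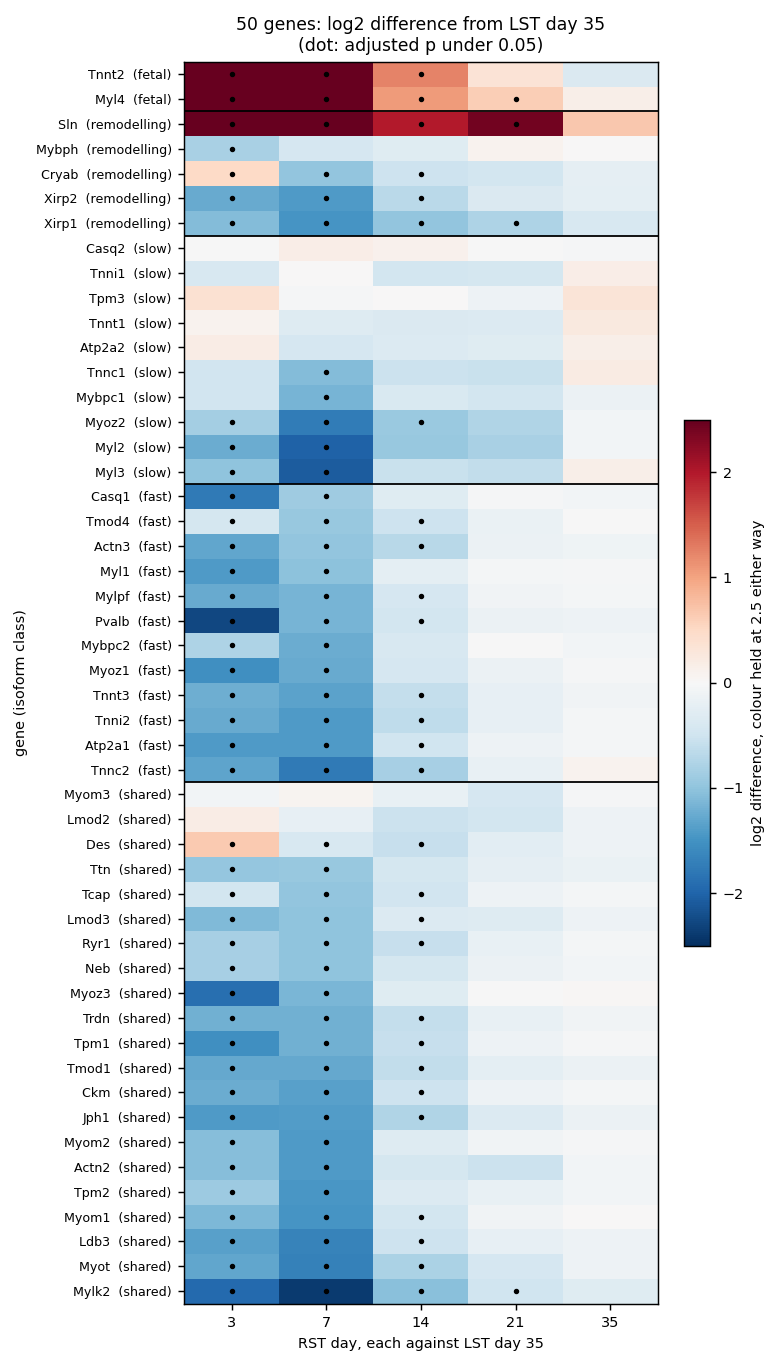
Log2 difference of each of the 50 genes between RST on days 3 to 35 (columns) and LST day 35, in rows by isoform class. Red is higher and blue lower than LST, and a dot marks an adjusted p below 0.05. The fetal genes and Sln are red with dots on days 3, 7 and 14, and Sln and Myl4 also on day 21. All 12 fast genes are blue with dots on days 3 and 7, and 8 of them on day 14. Of the 10 slow genes, 3, 5 and 1 have a dot on days 3, 7 and 14, and the day 35 column has none.

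Across the RST days alone, 42 of 50 genes changed (79.6% of all genes did). These were all 12 fast, both fetal, all 5 remodelling, 19 of 21 shared and 4 of 10 slow genes. The 8 that did not pass were the slow genes Tnnt1, Tnni1, Tnnc1, Tpm3, Casq2 and Atp2a2 and the shared genes Myom3 and Lmod2. Of the 50 genes, 25 had their lowest RST mean on day 7 and 15 on day 3. The highest RST mean fell on day 35 in 10 of 12 fast genes and 18 of 21 shared genes, and on day 7 in both fetal genes.

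Both fetal isoforms rose on days 3, 7 and 14. Tnnt2 (ENSMUSG00000026414, chromosome 1, 135836354 to 135852260, forward strand, mm10) codes for cardiac troponin T, which embryonic and regenerating skeletal muscle also makes. It stood at 33.8, 28.8, 17.2 and 25.6 CPM in the 4 RST day 3 libraries and at 41.8, 35.2, 39.7 and 48.9 CPM on day 7. In LST it stood at 2.69, 2.05, 3.58 and 1.74 CPM. Every library of days 3, 7 and 14 was above every LST library. Its log2 difference was 3.38 ± 0.28 (SE) on day 3 (adjusted p = 9.62e-10) and 4.03 ± 0.28 on day 7, a 16.3-fold higher level. It was 1.24 ± 0.28 on day 14 (adjusted p = 0.000813), at 3.64 to 8.77 CPM, and 0.35 ± 0.30 on day 21, which did not pass (adjusted p = 0.402). Between days 7 and 14 Tnnt2 fell by 2.78 on the log2 scale.

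Myl4 (ENSMUSG00000061086, chromosome 11, 104550663 to 104595753, forward strand) codes for the embryonic and atrial essential light chain of myosin and followed the same days. It stood at 65, 65, 38.5 and 31.4 CPM on RST day 3, 64.8, 55.6, 73.6 and 81.8 on day 7 and 15.8, 23.4, 15.1 and 12.4 on day 14, against 7.49, 8.71, 7.37 and 8.44 in LST. The RST libraries of days 3 to 21 were all above LST. The log2 difference was 2.64 ± 0.22, 3.11 ± 0.22, 1.07 ± 0.22 and 0.62 ± 0.22 on days 3, 7, 14 and 21, with adjusted p from 2.05e-10 on day 7 to 0.0434 on day 21. The day 21 call was lost when any 1 of its 8 libraries was left out (adjusted p = 0.0516 to 0.126). In the node table, scaled apart from this one, 13 libraries with little other muscle RNA held Myl4 at 7.22 to 11.2 CPM, near its level in LST, and Tnnt2 at 1.35 to 2.57 CPM.

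Sequences before the start of transcription are shown for 4 genes that stand for the patterns of the list: Tnnt2 and Myl4, which were high early, Myl3, a slow gene with one of the largest falls, and Xirp2, a remodelling gene that was low. The windows are the 250 bases before the start, 5′ to 3′ on the gene's strand, from RefSeq on GRCm38.p6. Capitals mark matches to MCAT (CATTCC, on either strand), MEF2 or CArG, motifs known from muscle promoters.
Tnnt2, chr1:135836084-135836333, forward strand: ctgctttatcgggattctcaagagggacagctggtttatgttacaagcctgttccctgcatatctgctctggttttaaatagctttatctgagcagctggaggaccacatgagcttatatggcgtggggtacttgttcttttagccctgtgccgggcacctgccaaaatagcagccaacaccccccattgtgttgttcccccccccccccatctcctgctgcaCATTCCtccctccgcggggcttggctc
Myl4, chr11:104550413-104550662, forward strand: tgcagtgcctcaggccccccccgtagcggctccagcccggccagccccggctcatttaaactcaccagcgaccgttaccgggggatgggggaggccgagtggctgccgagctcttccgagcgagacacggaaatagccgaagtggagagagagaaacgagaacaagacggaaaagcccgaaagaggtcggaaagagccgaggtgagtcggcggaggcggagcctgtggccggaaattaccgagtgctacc
Myl3, chr9:110763428-110763677, forward strand: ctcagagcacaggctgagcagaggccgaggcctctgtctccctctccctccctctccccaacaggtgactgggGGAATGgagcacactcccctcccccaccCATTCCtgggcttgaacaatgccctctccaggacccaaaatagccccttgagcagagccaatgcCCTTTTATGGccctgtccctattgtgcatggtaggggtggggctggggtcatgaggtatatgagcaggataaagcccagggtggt
Xirp2, chr2:67445752-67446001, forward strand: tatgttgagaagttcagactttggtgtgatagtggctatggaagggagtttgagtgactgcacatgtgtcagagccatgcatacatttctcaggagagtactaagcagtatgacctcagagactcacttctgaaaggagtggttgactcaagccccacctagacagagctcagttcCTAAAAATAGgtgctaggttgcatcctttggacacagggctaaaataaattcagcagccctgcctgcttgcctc
The Tnnt2 window holds 1 MCAT match, the Myl3 window 2 MCAT matches (1 on each strand) and 1 CArG match, and the Xirp2 window 1 MEF2 match. The Myl4 window holds none of these letters. E-boxes (CANNTG, the same on both strands, not capitalised, counted whether or not they overlap another match) number 4, 0, 1 and 2 in these windows. RefSeq gives Tnnt2 a second window, chr1:135836739-135836988, not shown, with 1 E-box and no MCAT, MEF2 or CArG match. RefSeq windows were found for 33 of the 50 genes, 39 windows in all. An E-box is in 84.6% of the 39 and in 66.2% of all 32851 windows, MCAT in 20.5% and 12.6%, CArG in 10.3% and 1.47%, and MEF2 in 7.69% and 0.508%. The member shares rest on 33, 8, 4 and 3 windows, and the CArG windows include overlapping windows of Ldb3. A match is a string of letters and not a bound site. Myom2, Myot, Trdn, Xirp1, Myoz1, Neb, Tcap, Tnni2, Tnnt3, Actn3, Jph1, Cryab, Atp2a2, Myoz3, Lmod3, Sln and Mylk2 were not matched.

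Among the thin filament genes, the fast troponins were lower on days 3 and 7, and the slow ones mostly did not pass the test. Tnnt3, fast troponin T, stood at 10504.5, 8729, 10751 and 11327 CPM on RST day 3 and 12463, 10014, 7776 and 7869 on day 7, against 24784, 25438, 22672 and 22826 in LST. The ranges did not overlap, and the level was 2.32 and 2.51 times lower on these days. Tnni2, the inhibitory subunit of fast fibres, was lower by a similar amount (log2 -1.26 ± 0.17 and -1.41 ± 0.17, and -0.64 ± 0.17 on day 14). Of the slow subunits, Tnnt1 was at 0.08 ± 0.45 and -0.31 ± 0.45 and Tnni1 at -0.41 ± 0.46 and 0.00 ± 0.45 on days 3 and 7, none of which passed. Tnnc1, the troponin C of slow fibres and heart, was lower on day 7 only by a call that 6 of 8 libraries could undo (-1.08 ± 0.48, adjusted p = 0.0451, and 0.0124 to 0.104 with 1 library left out). Those 6 were RST day 7 replicates 2, 3 and 4 and LST replicates 1, 3 and 4, and the log2 difference over the 8 ran from -1.37 to -0.94. Without the 2 libraries that stood apart, Tnnt1, Tnni1 and Tnnc1 were at -0.60, -0.29 and -1.37 on day 7.

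Fast troponin C, Tnnc2, was listed at a level that is out of step with its partners. In LST it stood at 3.02 to 5.18 CPM, or 5.45 ± 1.21 CPM per kb of exon, rank 47 of 50, where Tnni2 stood at 6277 ± 398 and Tnnt3 at 15117 ± 879 CPM per kb. In GENCODE M21, 592 of its 800 exon bases (74%) are shared with Ube2c on the opposite strand. Per kb of the 208 bases it does not share, its LST level was 21 CPM. Whether counting used strand is not given in the sources used here, and the part of the overlap in this low level was not tested. Mybph (49.9% of exon bases, with Adora1), Tmod1 (32.6%, with Tstd2), Atp2a1 (21.9%, with Rabep2), Cryab (17%, with Hspb2) and Ckm (15.5%) also share bases with a gene on the opposite strand. Tnnc2 was still lower on days 3 and 7, by log2 -1.32 ± 0.18 and -1.78 ± 0.18.

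Tropomyosins run along actin and set whether myosin can bind. Tpm1 and Tpm2 were lower on days 3 and 7, Tpm1 most on day 3 (-1.53 ± 0.19) and Tpm2 most on day 7 (-1.46 ± 0.18). Tpm3, the slow-fibre tropomyosin whose gene also gives cytoplasmic forms, had no call (0.39 ± 0.31 on day 3 and -0.04 ± 0.31 on day 7), though with library size alone it was higher on day 3 (0.90, adjusted p = 0.0158). The counts are per gene and do not separate such forms. In the node table Tpm3 stood at 233 to 289 CPM in 13 libraries, above its 74.9 to 223 in LST, though the tables were scaled apart. Neb, nebulin, which spans the thin filament, was lower on days 3 and 7 (-0.84 ± 0.22 and -1.01 ± 0.22), but with library size alone it was at -0.32 and -0.39 and did not pass (adjusted p = 0.149 and 0.0766). Of the genes that cap or seed the thin filament, Tmod1, Tmod4 and Lmod3 were lower on days 3, 7 and 14, while Lmod2 had no call (0.19 ± 0.27 on day 3). With library size alone Tmod4 was at 0.09 on day 3, without a call, and Lmod2 was higher (0.71, adjusted p = 0.0236). The day 14 call of Lmod3 (-0.34 ± 0.14) was lost without RST replicate 2 or 4 or LST replicate 3 (-0.45 to -0.24).

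Thick filament genes were lower in 8 of 10 on both days 3 and 7 (30.1% and 35.1% of all genes were), with Myl4 the 1 rise. Mylk2 (ENSMUSG00000027470, chromosome 2, 152911352 to 152923068, forward strand) codes for the kinase that phosphorylates the regulatory light chain in skeletal muscle. It had the largest fall of the 50 genes on day 7. It stood at 313, 394.5, 259 and 234 CPM then, against 1468.5, 1727, 1624.5 and 1514 in LST, and at 319 to 557 on day 3. All libraries of days 3, 7, 14 and 21 were below LST. On the log2 scale it differed by -1.95 ± 0.19, -2.40 ± 0.19, -1.05 ± 0.19 and -0.50 ± 0.18 on days 3 to 21. Its day 21 call (adjusted p = 0.0487) was lost without any 1 of 7 libraries, RST replicates 2, 3 and 4 and LST replicates 1 to 4 (adjusted p up to 0.177). The fast light chains Myl1 and Mylpf and the fast myosin-binding protein Mybpc2 were lower on days 3 and 7 by log2 differences from -1.41 to -0.78. Titin, Ttn, the molecular spring of the sarcomere, was lower on these days by 1.96 and 1.92 times, though with library size alone day 7 did not pass (log2 -0.32, adjusted p = 0.11). In that setting Mybpc2 on day 3 (-0.26) and Mylk2 on day 21 (-0.39) did not pass either.

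The slow light chains were among the largest falls of day 7. Myl3 stood at 75.6, 59.3, 56 and 41.6 CPM on day 7 and 175.5, 132, 113.5 and 69.1 on day 3, against 304, 114, 256 and 316 in LST. On day 7 no library reached the lowest of LST, and on day 3 the ranges overlapped. The log2 difference was -2.09 ± 0.45 on day 7 (adjusted p = 0.000229) and -1.01 ± 0.44 on day 3 (adjusted p = 0.0433). The day 3 call was lost without RST day 3 replicate 2, 3 or 4 or LST replicate 1, 3 or 4, at -1.25 to -0.82 over the 8 libraries left out in turn. Myl2, the slow regulatory light chain, stood at 53.3, 39.8, 47.4 and 32.7 CPM on day 7 and 231, 69.2, 185 and 218 in LST (log2 -2.02 ± 0.46). On day 3 Myl2 was at -1.24 ± 0.44, with the call lost without RST replicate 4 or LST replicate 1 (-1.51 to -1.06). The slow myosin-binding protein Mybpc1 was lower on day 7 (-1.17 ± 0.24). The day 3 values with library size alone were -0.49 for Myl3 and -0.72 for Myl2, and neither passed. Without the 2 libraries that stood apart, Myl3 and Myl2 on day 7 were at -2.33 and -2.29.

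Z-disc genes were lower in 10 of 12 on day 3 and in all 12 on day 7 (30.1% and 35.1% of all genes were). The other 2 were higher on day 3 (38.6% of all genes were). Those 2 were Des and Cryab. Des, desmin, ties Z-discs to one another and to the cell membrane. It stood at 6709, 6235, 6091 and 5861 CPM on RST day 3, 3199, 2889, 2758 and 3249 on day 7 and 2814, 2106, 2772 and 2932 on day 14, against 4272.5, 3924, 4009 and 3699 in LST. Every day 3 library was above LST and every library of days 7 and 14 below it, so the sign turned (log2 0.65 ± 0.12, -0.40 ± 0.12 and -0.58 ± 0.12), except that with library size alone day 7 was higher (0.23, adjusted p = 0.0231). Between days 3 and 7 Des fell by 1.04 on the log2 scale (adjusted p = 1.17e-06). Smooth muscle also makes desmin, and the other 7 smooth muscle markers summed to 172.7 to 184.9 CPM on day 3 and 287 to 311.5 on day 7, against 149 to 169 in LST.

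Cryab, alpha-B crystallin, is a small heat shock protein that guards desmin and titin. It stood at 1357, 1064, 711 and 793 CPM on day 3 and 338, 374, 289 and 394 on day 7, against 714, 624, 755 and 686 in LST. The day 3 libraries reached into the LST range and the day 7 libraries were all below it. In the fit, Cryab differed by log2 0.50 ± 0.19 on day 3 (adjusted p = 0.0255) and -0.99 ± 0.19 on day 7, the latter at -0.37 and not passing with library size alone (adjusted p = 0.0726). The day 3 call was lost without RST replicate 1 or 2 or LST replicate 2 or 4 (0.30 to 0.62 with 1 library left out), and without the 2 libraries that stood apart (0.45). From day 3 to day 7 Cryab fell by 1.49 on the log2 scale (adjusted p = 4.65e-06).

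Alpha-actinin crosslinks thin filaments in the Z-disc. Actn3, its fast form, and Actn2, its shared form, were both lower on days 3 and 7 (Actn3 -1.29 ± 0.17 and -0.99 ± 0.17, Actn2 -1.06 ± 0.27 and -1.41 ± 0.27). Actn2 was at -0.54 on day 3 with library size alone and did not pass (adjusted p = 0.0604). Of the calsarcins, which tether calcineurin there, the fast Myoz1 and Myoz3, put in the shared class here, were lowest on day 3 (-1.54 ± 0.19 and -1.88 ± 0.22). Myoz3 stood at 14.2, 16.9, 29.5 and 33.4 CPM on that day, against 83, 95.3, 78.7 and 88.9 in LST. The slow Myoz2 was lowest on day 7 (-1.75 ± 0.38), at 31.4, 28.8, 37.2 and 49.9 CPM against 136, 76.3, 149 and 134 in LST, and those ranges did not overlap. Its smaller differences on day 3 (-0.85 ± 0.38) and day 14 (-0.92 ± 0.38) lost their calls in 6 and 5 of 8 leave-outs. LST replicates 1, 3 and 4 and RST replicate 4 could undo either, RST replicate 2 too, and on day 3 also RST replicate 3 (adjusted p up to 0.143 on both days). Without the 2 libraries that stood apart, Myoz2 was at -1.02, -1.92 and -1.62 on days 3, 7 and 14. Myotilin (Myot), ZASP (Ldb3) and telethonin (Tcap) were lower on days 3, 7 and 14. Tcap was the smallest of these on day 3 (-0.45 ± 0.17) and was at 0.07, without a call, with library size alone. Its day 3 call was lost without RST day 3 replicate 2 or 4 (-0.58 to -0.36), and its day 14 call without RST day 14 replicate 2 (adjusted p = 0.084).

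Xirp1 and Xirp2, actin-binding Xin repeat proteins known to gather where muscle is damaged, were lower than in LST. Xirp1 stood at 88, 149, 96 and 99.8 CPM on day 3, 68.4, 86.5, 62.6 and 109.5 on day 7 and 171, 94, 150.2 and 119 on day 21, against 186, 158, 272 and 298 in LST. All day 3 and day 7 libraries were below LST. The log2 difference was -1.08 ± 0.23, -1.48 ± 0.24, -0.99 ± 0.23 and -0.78 ± 0.23 on days 3 to 21. The day 21 call (adjusted p = 0.0155) was lost without RST day 21 replicate 2 or LST replicate 3 or 4 (-0.92 to -0.62). Xirp2 was lower on days 3, 7 and 14 (-1.26 ± 0.19, -1.42 ± 0.19 and -0.67 ± 0.18).

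In the M-band, Myom1 and Myom2, the myomesins that crosslink myosin, were lower on day 3 (-1.12 ± 0.17 and -1.06 ± 0.16) and day 7 (-1.47 ± 0.17 and -1.41 ± 0.16). Ckm, muscle creatine kinase, which renews ATP beside the myosin heads, was 2.38 and 2.57 times lower on those days. Myom3 had no call (0.07 ± 0.44 on day 7). Its 4 libraries of day 7 stood at 52.5, 39, 53.2 and 157 CPM, with replicate 4 far above the others.

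Calcium-handling genes held the largest rise of the list, Sln on day 7, and the largest fall of day 3, Pvalb. Sln (ENSMUSG00000042045, chromosome 9, 53850164 to 53854560, forward strand) codes for sarcolipin, a small inhibitor of the SERCA pump that is known to be raised in young and diseased muscle. It stood at 17.4, 33.8, 74.2 and 10.4 CPM on RST day 3, 172, 56.5, 140.2 and 117.5 on day 7, 13.1, 26.6, 8.95 and 8.23 on day 14 and 13.4, 9.2, 38.9 and 16.5 on day 21, against 6.26, 1.46, 3.45 and 3.38 in LST. The day 3 and day 7 libraries spread widely, and all libraries of days 3 to 21 were above LST. The log2 difference was 3.22 ± 0.59, 5.06 ± 0.62, 1.98 ± 0.59 and 2.42 ± 0.59 on these days, with adjusted p of 5.16e-05, 1.67e-07, 0.00677 and 0.00377. Without RST day 14 replicate 2 the day 14 call was lost (1.47, adjusted p = 0.051). Between days 7 and 14 Sln fell by 3.08 on the log2 scale.

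Pvalb (ENSMUSG00000005716, chromosome 15, 78191114 to 78206400, reverse strand), the parvalbumin of fast fibres, had the largest fall of day 3. It stood at 2267, 1588, 2338 and 2333 CPM on RST day 3 and 6320.1, 5006, 3710.2 and 3496 on day 7, against 10348, 12448, 8857 and 9893 in LST. No RST library of these days reached LST, and no day 3 library reached the lowest of day 7. Pvalb differed by log2 -2.28 ± 0.20 on day 3 (adjusted p = 2.57e-09), 4.87 times lower, and -1.16 ± 0.20 on day 7. Unlike most of the list it rose between those days, by 1.12 ± 0.19 (adjusted p = 0.000108). Its day 14 difference (-0.46 ± 0.19, adjusted p = 0.0447) did not pass without RST day 14 replicate 1 or 2 or LST replicate 1, 2 or 4 (-0.59 to -0.35).

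Casq1, the fast calsequestrin, moved alike: 693, 624, 872 and 935 CPM on day 3, 1919, 1665, 1195 and 1015 on day 7 and 2747, 3081, 2315 and 2521 in LST. Its log2 difference was -1.77 ± 0.18 on day 3 and -0.88 ± 0.17 on day 7, and it rose by 0.89 ± 0.17 between them. The day 7 difference was -0.27 with library size alone and did not pass (adjusted p = 0.0732). Casq2, the slow and cardiac calsequestrin, stood at 36.5 to 52.2 CPM on day 3 and 31.1 to 48.6 in LST and had no call, with means of 42.2 ± 7.32 and 42.3 ± 7.92 CPM. With library size alone it was higher on days 3 and 7 (0.52 and 0.79, adjusted p = 0.043 and 0.00285). Of the pumps, the fast Atp2a1 (SERCA1) was 2.68 and 2.66 times lower on days 3 and 7. The slow Atp2a2 (SERCA2) stood at 419.7, 569.6, 510.3 and 278 CPM on day 3 and 438, 147.5, 417 and 556 in LST, with no call (0.19 ± 0.35, and -0.08 without the 2 libraries that stood apart). Other cells make Atp2a2 too, and it stood at 126 to 178 CPM in the 13 node libraries. At the triad, Ryr1, its partner triadin (Trdn) and junctophilin Jph1, which holds the membranes together, were lower on days 3, 7 and 14. They ran from log2 -0.82 for Ryr1 to -1.41 for Jph1 on day 3.

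**Figure D3:**
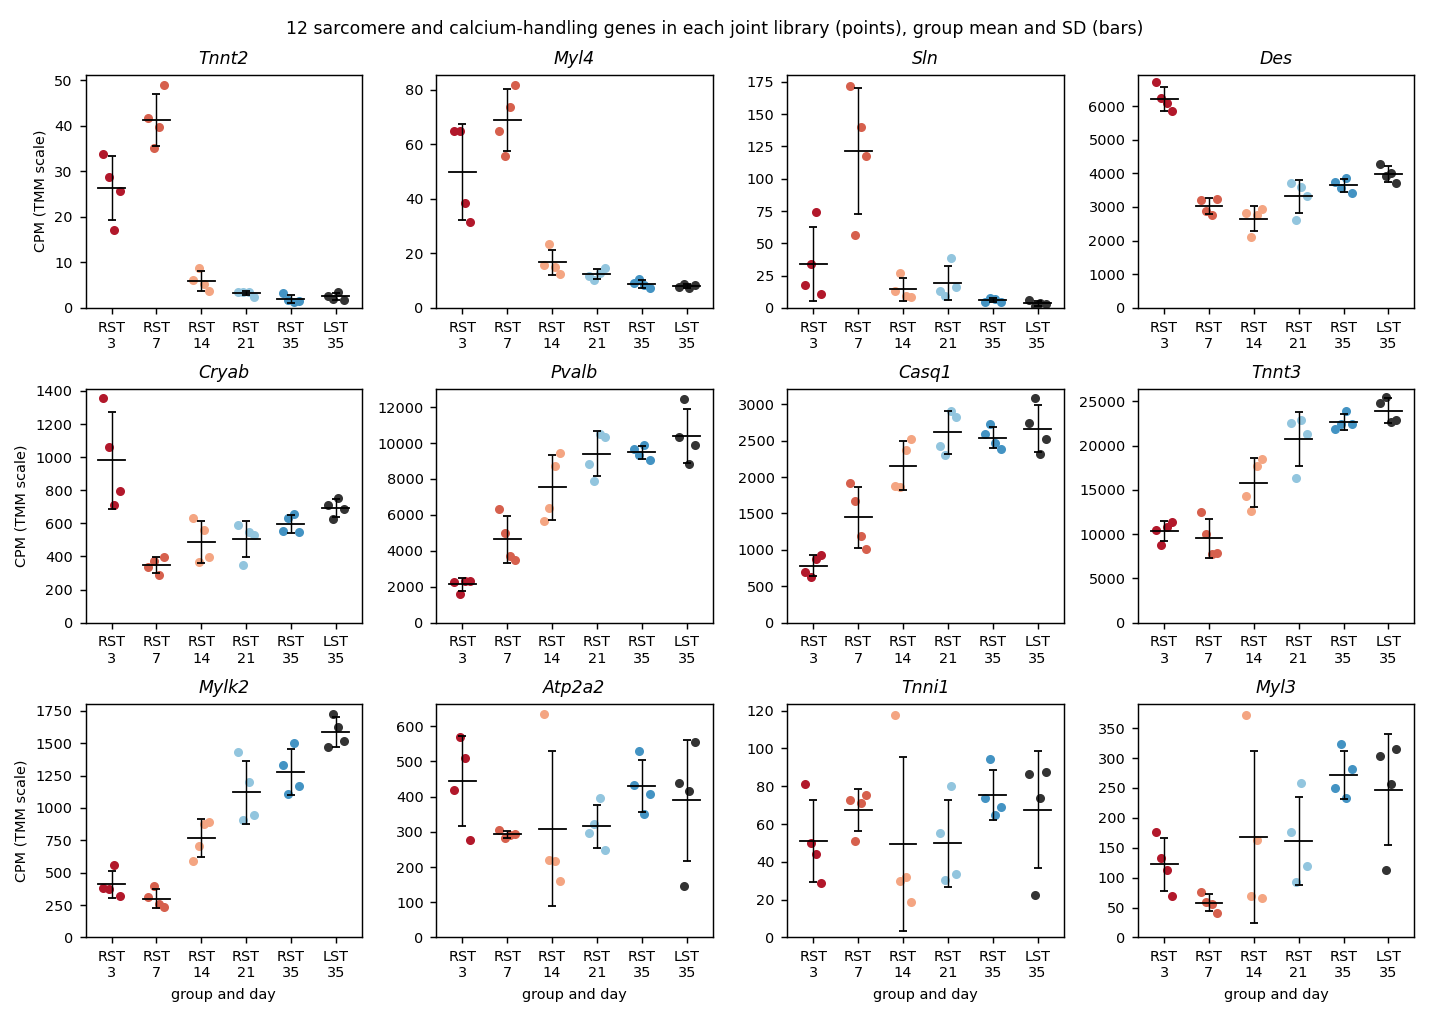
CPM (TMM scale) of 12 genes in each of the 24 libraries, by label and day, with the group mean and SD (n = 4). Tnnt2, Myl4 and Sln peak on RST day 7, Des and Cryab are highest on day 3, and Pvalb, Casq1, Tnnt3 and Mylk2 start low and approach LST. Single libraries of RST day 14 and LST lie far from their groups in Atp2a2, Tnni1 and Myl3.

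By fibre type, all 12 fast genes were lower on days 3 and 7, with ranges that did not overlap LST in any of them (61.7% and 71.9% of all genes had none on those days), and their median log2 difference was -1.31 and -1.20. On day 14, 8 of 12 were lower, at a median of -0.48, and 7 of 12 did not overlap LST (53.8% of all genes). Of these 8, Mylpf, Atp2a1 and Pvalb lost the call in 5, 6 and 5 of 8 leave-outs (adjusted p up to 0.154, 0.104 and 0.151), with RST replicates 1 and 2 and LST replicates 1, 2 and 4 common to all of them and LST replicate 3 for Atp2a1 alone. Of the 10 slow genes, 3 were lower on day 3, 5 on day 7 and 1 on day 14, at medians of -0.44, -0.75 and -0.41, and none was on day 21. Of all genes, 30.1%, 35.1% and 24.5% were lower on days 3, 7 and 14, so the slow count was near that share on day 3, above it on day 7 and below it on day 14. With library size alone, 10, 11 and 5 fast genes were lower on days 3, 7 and 14 (11.2%, 13.6% and 6.79% of all genes). In that setting the slow genes were 2 higher and none lower on day 3, 1 higher and 4 lower on day 7, and none of either on day 14, where 63.5%, 65.8% and 48.1% of all genes were higher on these days. Summed over the class, the fast genes stood at 41703 to 53756 CPM on day 3 and 113591.5 to 133169 in LST, and the slow genes at 2011 to 4058 and 3016 to 4519. Mybpc1 alone gave 1218 to 2763 CPM of the slow sum on day 3 and 2168 to 2929 in LST, so that sum says little of the other slow genes.

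The slow counts depend on the libraries that stood apart. Without LST replicate 2 and RST day 14 replicate 1, 5 slow genes were lower on day 3 (28.4% of all genes were lower), 6 on day 7 (33.3%), 8 on day 14 (19.6%), 2 on day 21 (2.65%) and none on day 35 (0.0488%). From day 14 to 21 no slow gene fell without them (0.0793%). The slow median on day 14 moved from -0.41 to -1.58. Tnnt1, Tnni1 and Tnnc1 on that day moved from -0.36, -0.45 and -0.53 to -1.59, -1.63 and -1.83. Atp2a2 moved from -0.33 to -1.23 and Tpm3 from 0.01 to -0.78. Both libraries were picked by their slow genes. Leaving out LST replicate 2 lowers the slow differences of every RST day by construction, and leaving out the other library lowers those of day 14 further. On days 3, 7, 21 and 35 the slow median moved from -0.44, -0.75, -0.45 and 0.14 to -0.60, -0.94, -0.68 and -0.13. These slow counts and values are therefore a description and no separate test. The fast counts were 12, 12 and 5 of 12 on days 3, 7 and 14 without both libraries.

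**Figure D4:**
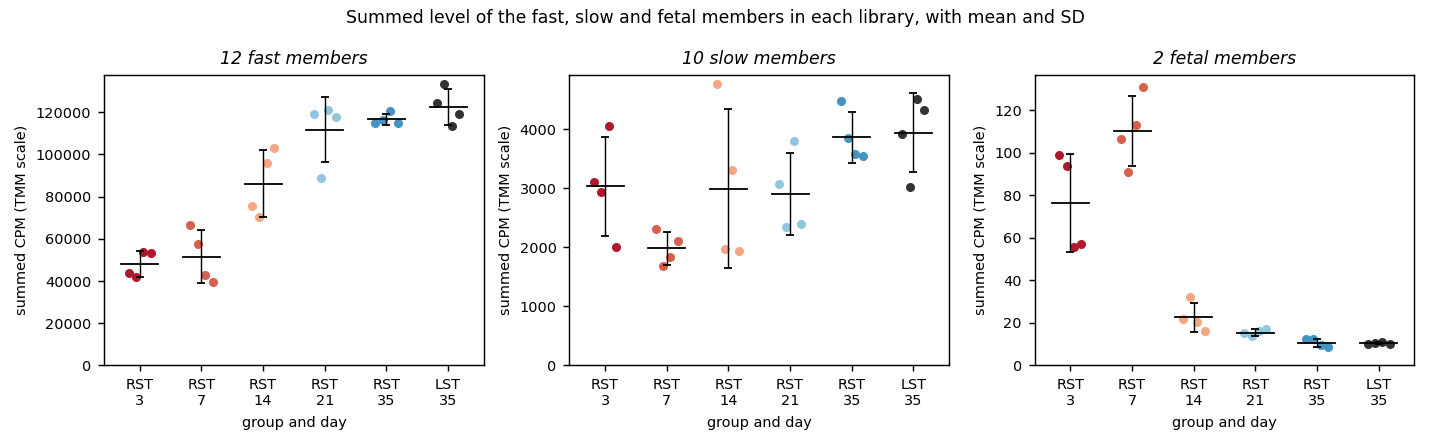
Summed CPM (TMM scale) of the 12 fast, 10 slow and 2 fetal genes in each library, by label and day, with the group mean and SD (n = 4). The fast sum is lowest on RST days 3 and 7 and 88957 to 121038 on day 21, the fetal sum is highest on day 7 (90.8 to 131), and in the slow sum 1 library of RST day 14 (4773) lies above the other 3.

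A ratio of a slow gene (for Actn3, the shared Actn2) to its fast counterpart within a library needs no scaling between libraries. The pairs include Tnnc1 to Tnnc2, whose fast gene was listed far below its partners, as described above. Of 10 such pairs, all 10 had a higher mean ratio on RST day 3 than in LST, 6 on day 7, 4 on day 14, 1 on day 21 and 9 on day 35. The median difference was 0.80, 0.47, -0.01, -0.36 and 0.18 on the log2 scale. These values depend on LST replicate 2: without it 9, 6, 2, 0 and 1 of the 10 pairs were above LST on days 3, 7, 14, 21 and 35, at medians of 0.44, 0.24, -0.47, -0.60 and -0.12. Myl2 to Mylpf on day 3 then turned from 0.09 to -0.40. Without RST day 14 replicate 1 as well, none of the 10 was above LST on day 14, at a median of -1.06. The ratios of Atp2a2 to Atp2a1 and of Casq2 to Casq1 did not overlap LST on day 3, at differences of 1.74 and 1.78, or on day 7, at 1.20 and 1.09 (exact two-sided permutation p = 0.0286 each, adjusted p = 0.132). Without LST replicate 2 these differences were 1.31 and 1.57 on day 3 and 0.77 and 0.87 on day 7. On day 7 Tnnt1 to Tnnt3 and Tnni1 to Tnni2 did not overlap either, at 1.18 and 1.61, and were 0.71 and 1.10 without that library. The mean light chain ratios of day 7 were below LST without passing: Myl3 to Myl1 was -0.97 and Myl2 to Mylpf -0.72 (exact permutation p = 0.143 each, adjusted p = 0.408). Without LST replicate 2 they were -1.36 and -1.20, and neither overlapped LST, while both did with it. The libraries left out were picked by their slow genes, so leaving them out lowers the slow ratio differences by construction. The ratio values and counts without them are therefore a description and no separate test.

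Fetal to fast ratios differed far more. The ratio of Tnnt2 to Tnnt3 was higher than in LST by 4.61, 5.43 and 1.83 on days 3, 7 and 14, and that of Myl4 to Myl1 by 3.99, 4.14 and 1.29, none overlapping LST. On day 21 the differences were 0.61 and 0.66, where Myl4 to Myl1 still did not overlap LST and Tnnt2 to Tnnt3 did. On day 35 they were -0.33 and 0.17, and both overlapped LST. With 4 libraries against 4 the smallest p an exact permutation test can give is 0.0286, and after adjustment over 60 tests (12 pairs on 5 days) none passed, the smallest adjusted p being 0.132.

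**Figure D5:**
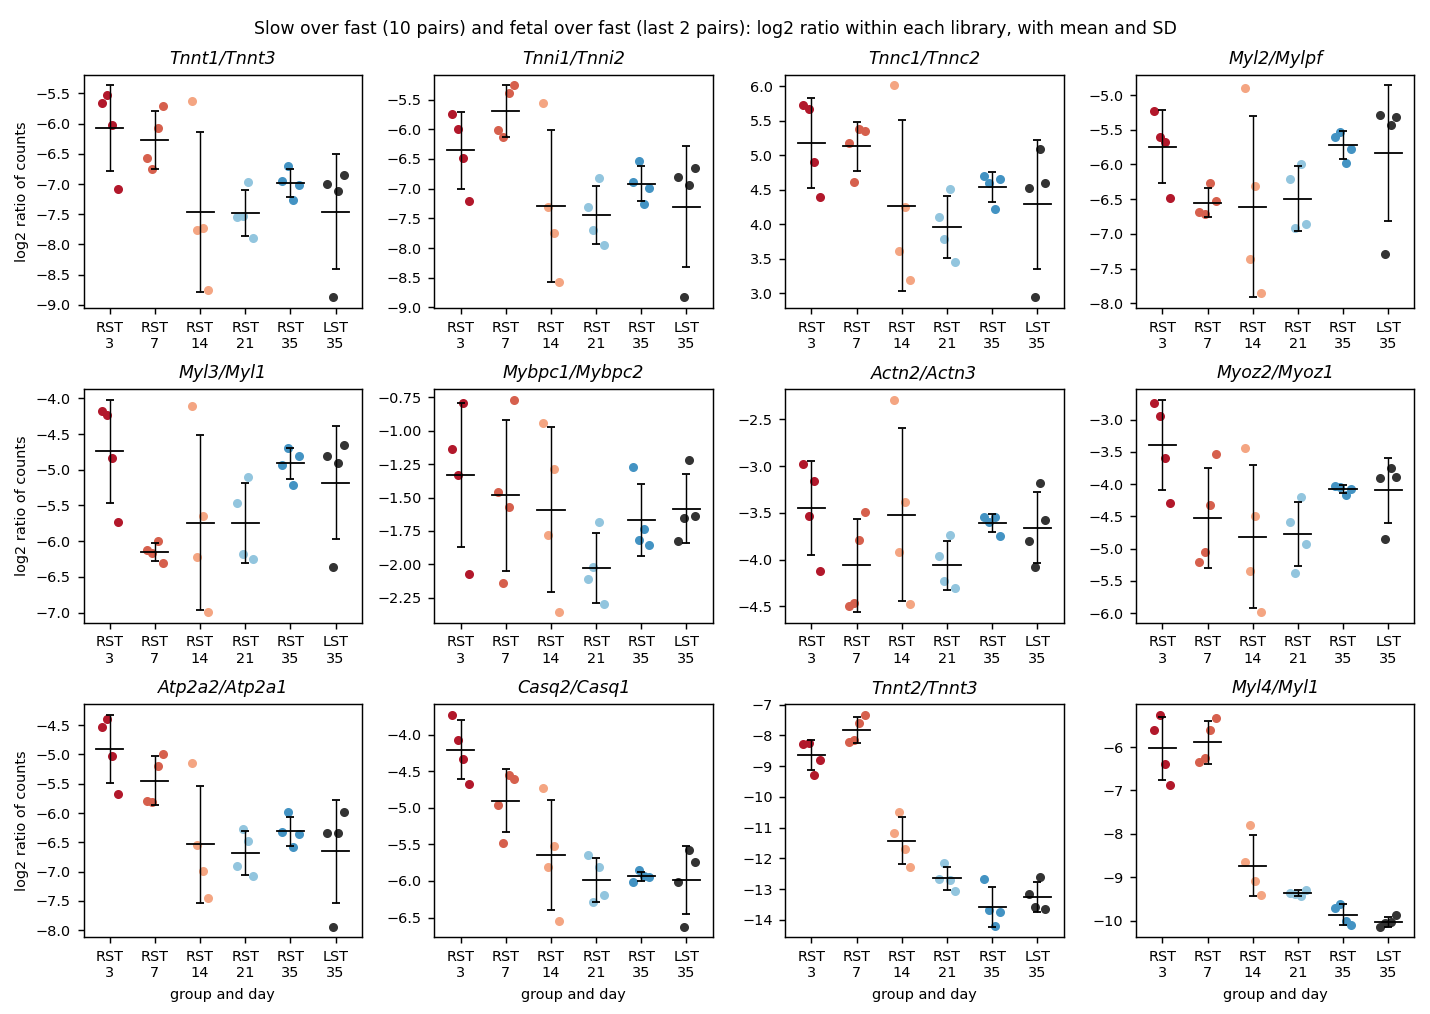
Log2 ratio of the counts of a slow (first 10 panels) or fetal (last 2 panels) gene to its fast counterpart within each library, by label and day, with the group mean and SD (n = 4). Atp2a2/Atp2a1 and Casq2/Casq1 are above LST on days 3 and 7, both fetal ratios are above LST through day 14, and RST day 14 and LST each have 1 library far from the rest in most slow ratios.

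Set beside metabolic genes of muscle, the fast genes lay near them on day 3 and the slow genes above them. All 10 muscle enzyme genes (among them Eno3, Pygm and Ckmt2) were lower on days 3 and 7, 6 on day 14 and 1 on day 21. The share of all genes lower on these days was 30.1%, 35.1%, 24.5% and 5.42%. Relative to the median log2 difference of the enzymes, the fast genes had a median of 0.21 on day 3 and 0.42 on day 7. Of the 12, 9 and 8 lay within 0.5. The slow genes had a median of 1.08 and 0.87, with 7 and 5 of 10 at least 1 above the enzymes. On days 14, 21 and 35 the slow median was 0.10, -0.22 and 0.23. These are descriptions with no test of their own, and they depend on the libraries that stood apart. Without those libraries the slow median was 0.89, 0.65, -0.97, -0.49 and -0.07 relative to the enzymes on days 3, 7, 14, 21 and 35, with 4 and 3 of 10 at least 1 above on days 3 and 7. The fast median was then 0.21, 0.44 and 0.22 on days 3, 7 and 14.

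Of the steps between successive RST days, that from day 7 to 14 held the most calls among the members. In that step 30 of 50 genes rose and 3 fell (20.9% and 18% of all genes). The rises were 11 of 12 fast, 16 of 21 shared and 2 of 10 slow genes and Xirp2, and the falls were Tnnt2, Myl4 and Sln. Mylk2 rose most in the fast and shared classes (1.35 ± 0.19), followed by Ldb3 (1.15 ± 0.16) and Tpm2 (1.11 ± 0.18). The slow rises were Myl3 and Mybpc1 (1.53 ± 0.44 and 0.79 ± 0.24). Without RST day 14 replicate 1, Myl3 was at 0.77 (adjusted p = 0.115), and without replicate 3, Mybpc1 was at 0.65 (adjusted p = 0.0535). Without the 2 libraries that stood apart, 4 slow genes fell in this step and none rose (13.3% of all genes fell), among them Atp2a2 (-0.55) and Tpm3 (-0.49). Those libraries were picked by their slow genes, so these slow falls are no separate test. Of the 33 calls, 8 were lost at least once when 1 library was left out. With library size alone, 9042 of the 16149 genes tested were called in this step, and 1315 of them rose. That made 14.5% of all calls higher, where 53.7% were with TMM. The members had 24 rises and 5 falls in that setting.

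Between days 3 and 7, 5 genes rose (18.7% of all genes) and 6 fell (22.5%). Pvalb, Casq1, Myoz3, Sln and Tnnt2 rose, and Cryab, Des, Tmod4, Tcap, Tpm2 and Mybpc1 fell. Mybpc1, Tpm2 and Tcap lost the call without RST day 3 replicate 3 or RST day 7 replicate 3, and Mybpc1 also without day 7 replicate 2 (adjusted p up to 0.163). Tnnt2 lost it without RST day 3 replicate 3 or 4 or day 7 replicate 4 (adjusted p up to 0.104). Leaving out 1 library gave 3 to 12 falls and 4 to 7 rises, with 3 falls without RST day 3 replicate 3 and 12 without RST day 7 replicate 1. From day 14 to 21 and from 21 to 35 none passed by edgeR (0.737% and 3.97% of all genes did). Of all genes, 0.0867% rose and 0.65% fell in the first step, and 0.0805% rose and 3.89% fell in the second. At an unadjusted p below 0.05 there were 16 and 3 members. DESeq2 called 6 members higher and 1 lower in the first step and 1 lower in the second. Over all genes DESeq2 called 1182 and 1145 in these steps, 553 and 70 of them higher. Without RST day 21 replicate 2, 17 members rose from day 14 to 21. The shares of all genes at the unadjusted cut and in that leave-out are not given here, so those counts are no result about the members.

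Another 44 genes of the sarcomere and triad, not among the 50, were mostly lower too. Of these, 28, 36, 32 and 6 were lower than LST on days 3, 7, 14 and 21, and 8, 3, 2 and 1 were higher. The shares of all genes on these days were 30.1%, 35.1%, 24.5% and 5.42% lower and 38.6%, 41%, 33.4% and 21.7% higher. By smallest adjusted p on day 3, Synpo2, an actin-bundling Z-disc protein, stood at a mean of 264 CPM and 965 in LST (log2 -1.87), Klhl31 at 141 and 491 (-1.80) and Jph2, another junctophilin, at 489 and 1657 (-1.76). Tmod3, a tropomodulin of many cell types, was higher, at 49.9 against 24.9 CPM (adjusted p = 3.55e-08). Ankrd1, a stretch-responsive partner of titin named here after its values were seen, was at 290.4 CPM against 22.1 (3.71). In the list of regenerating muscle, 6, 7, 7 and 4 of 10 genes were higher on days 3, 7, 14 and 21. On these days 1, 1, 0 and 0 were lower, and the shares of all genes are those given above. Embryonic myosin Myh3 was at 48.9 CPM on day 3, 106 on day 7 and 3.77 in LST, beside the rises of Tnnt2 and Myl4. The fall in that list was of Actc1, cardiac actin, at 77.3 CPM on day 3 and 757 in LST (-3.29).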

How the data were processed

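RNA was sequenced from joint soft tissue (24 libraries) and lymph nodes (18 libraries) with NEBNext Ultra II libraries from 100 ng of total RNA, per the labels' protocols. The authors deposited raw counts per gene. The submitters' processing notes name fastp, STAR and the build mm10. Tool versions, annotation, counter, strand setting and the treatment of reads with several matches, which bear on overlapping genes, were not given in the sources used here.

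The 50 members, the other gene lists and the tests were chosen with earlier results of these data known. Members were matched by Ensembl ID through GENCODE M21. Joint counts were tested with edgeR 4.0.16 (R 4.3.3): filterByExpr with a minimum count of 10, TMM scaling, 1 quasi-likelihood fit over all 6 groups of 4, and Benjamini-Hochberg adjustment over 16149 genes, with 0.05 as the threshold. Levels are CPM on the TMM scale and errors are SD (n = 4) or the SE of the fit. Ratios between paralogs used counts plus 0.5 and a two-sided exact permutation test. All 50 members may be named, and of each other list up to 4 genes with the smallest adjusted p in a comparison. The scripts were tested on simulated data. Alternatives were library size alone, RLE and upper quartile factors, DESeq2 1.42.0, no filter, only the groups compared, a replicate block and leaving out each library. Leaving out the 2 libraries that stood apart was added after seeing the data. Node counts were scaled separately and enter no test.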

Additional observations from a re-analysis of the deposited data

Results flagged for a closer look

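In 19 of the 300 groups of 4 libraries (50 genes in 6 groups), 1 library lay farther from the rest than Dixon's critical value for the gap over the range, a limit that chance passes in about 1 in 20 groups. On RST day 14, replicate 1 was high in 5 slow genes: Tnnt1 at 290.5 CPM (others 42.5 to 83.4), Tnni1 at 117.7 (18.8 to 31.8), Tnnc1 at 164.6 (24.5 to 44.2), Tpm3 at 339.9 (102.8 to 139.8) and Atp2a2 at 635.7 (160.9 to 221.4). Replicate 2 of that day was low in Tcap at 1121.9 CPM and Myom1 at 1204.9. On RST day 21, replicate 2 was low in Tpm1 at 13524.7 CPM and Ckm at 10760.4, and replicate 4 was low in Tnnt2 at 2.477.

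Myom3 had 3 such libraries, RST day 7 replicate 4 at 157.4 CPM, RST day 35 replicate 1 at 86.5 and LST replicate 2 at 40.3. The others of LST held Lmod3 high in replicate 3 at 188.8 CPM and Xirp2 low in replicate 1 at 4042.0. On RST day 35, Tnni2 was high in replicate 3 at 9981.2 CPM, Ryr1 low in replicate 3 at 5322.9 and Atp2a1 high in replicate 1 at 34542.8. Pvalb was low in RST day 3 replicate 2 at 1588.0 CPM.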

How the results depend on the processing

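With library size alone, the count of members higher than LST was 8 on day 3 and 5 on day 7, the count lower was 13 on day 14 and 1 on day 21, and 9 rose from day 3 to 7 and 5 fell from day 7 to 14. In that setting Tcap (0.0693) and Tmod4 (0.091) took the opposite sign on day 3 without a call, and Casq2 on day 3 (0.52) and Des on day 7 (0.23) took it with one. The share of calls that were higher over all genes was 59.6% from day 3 to 7 with library size alone, against 45.3% with TMM. In that setting 5791 genes were called from day 3 to 7 and 9042 from day 7 to 14, with 3454 and 1315 of them higher. RLE and upper quartile factors gave 1 member higher on day 21. DESeq2 gave 5 lower on day 21, 6 rises and 1 fall from day 14 to 21, and 1 fall from day 21 to 35. Over all genes it called 4950, 1182 and 1145 there, with 3464, 553 and 70 of them higher. With no filter on low counts 10 fell from day 3 to 7, 1 from day 14 to 21 and 1 from day 21 to 35. Without LST replicate 2 and RST day 14 replicate 1, 1 member was higher on day 21 and 7 fell from day 7 to 14. Tpm3 on day 14 (-0.78) and Tpm3 (-0.49) and Atp2a2 (-0.55) from day 7 to 14 reversed in that setting. The cause of these shifts was not tested.

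Leaving out 1 library gave 4 to 5 members higher and 32 to 36 lower on day 3, 3 and 38 to 40 on day 7, and 2 to 3 and 16 to 29 on day 14, with the 16 without RST day 14 replicate 2. It gave 1 higher and 0 to 3 lower on day 21, 4 to 7 rises and 3 to 12 falls from day 3 to 7, and 26 to 36 rises and 3 to 5 falls from day 7 to 14. From day 14 to 21 it gave 0 to 17 rises and 0 to 1 falls, and 42 to 48 members changed over the RST days. No member was called on RST day 35 or from day 21 to 35 in these leave-outs. The shares of all genes in them are not given here, so these counts show only how the calls depend on single libraries. Same-numbered libraries of RST and LST had correlations of deviations of 0.0829, 0.139, 0.0912 and 0.192 for replicates 1, 2, 3 and 4. The best match of RST replicates 2, 3 and 4 was the library of the same number, and that of replicate 1 was replicate 2. The numbers were not read as pairs in the main fit, and whether they mark paired samples was not tested. With the replicate number as a block, 4 members were lower on day 21, and no other count of members moved by over 1.5 times. Among values of single members, 7 calls were gained and 3 lost under the block.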

Other observations

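The lymph node libraries, from groups labelled NoImplant, ContraImplant and Implant on days 7 and 14, were counted in a separate table and are given as values, in CPM on total counts. In 13 of the 18 libraries the 12 fast genes summed to 22.8 to 34.3 CPM. In the other 5, all of day 7, they summed to 117.5 to 861.8 CPM. These were NoImplant replicates 2 and 3, ContraImplant replicates 2 and 3 and Implant replicate 2. Ckm stood at 130 CPM in NoImplant replicate 2 and 71.3 in ContraImplant replicate 3, and Atp2a1 at 253 and 177. In the 13 libraries, 6 of the 50 genes stood at 10 CPM or more throughout: Ttn, Tpm1, Tpm2, Tpm3, Atp2a2 and Des. None of them is a fast gene and 2 are slow genes, Tpm3 and Atp2a2.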
